A study of Mus musculus with 9 samples.

Results

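STAT3 signalling and its feedback were read here through 10 genes: the receptor chains Osmr, Il6st and Lifr, the kinase Jak1, the transcription factor Stat3, the feedback inhibitors Socs3, Socs1, Socs2 and Cish, and the target kinase Pim1. Every probe set that the platform annotation assigns to exactly 1 of these genes was taken, which gave 30 of 45037 probe sets and all 10 genes of 18193 with such a probe set. The values come from epidermis scratched off frozen skin, 1 array per mouse. In 5 mice, called inactivated here, both Alox12b alleles were floxed (Alox12b fl/fl) and the tamoxifen-dependent recombinase Cre-ERT2 was expressed from the keratin K14 promoter, which drives it in keratinocytes. In 4 littermates, called control, Alox12b was floxed in the same way and no Cre was present. Mice of both groups were on the hairless SKH1 background after 5 generations of backcrossing and had 3 intraperitoneal injections of 1 mg tamoxifen in oil at the age of 8 weeks. Epidermis was taken 6 days after treatment. Since Cre was absent from every control, its activity and the loss of Alox12b cannot be told apart. Alox12b encodes a lipoxygenase of the skin barrier.

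Cytokines of the interleukin 6 family bind receptor complexes that share the chain gp130, the product of Il6st. Osmr and Lifr are alternative partners of gp130, for oncostatin M and leukaemia inhibitory factor. The bound receptor activates JAK kinases such as Jak1, which phosphorylate STAT3, and STAT3 then enters the nucleus and induces its own inhibitors, Socs3 above all. Socs1 is best known from interferon signalling, and Socs2 and Cish are classical targets of STAT5. In skin, STAT3 is known for its part in wound healing and keratinocyte proliferation. Its activation depends on phosphorylation, which arrays of RNA do not read.

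Osmr was higher in inactivated than in control epidermis, with differences of 1.04 and 1.26 on the log2 scale at the main probe sets. Il6st and Lifr, the chains that pair with Osmr or take its place, were lower, by 0.70 and 0.88 at their brightest probe sets. Stat3 differed by no more than 0.09 at any of its 4 probe sets, and none passed the test. Socs3 was higher on average at all 3 of its probe sets, by 0.74 to 0.90, but 1 inactivated array lay far above the others and only 1 probe set passed. Socs2 and Cish had no probe set that passed.

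Each difference is the inactivated mean minus the control mean in log2 units, and values after ± are standard errors (SE) unless called SD. Probe sets were tested with limma, a linear model with a shared estimate of the spread, at an adjusted p of 0.05 over all probe sets. Of the 30 member probe sets, 4 were higher, 6 lower and 20 did not pass, so that 33.3% passed, against 28.6% of all probe sets (12.7% rose and 16.0% fell). At 9 of the 30 the groups did not overlap, against 25.7% of all probe sets. With each gene read at its brightest probe set, 2 members rose, 3 fell and 5 did not pass, while 34.4% of all genes passed and 31.6% had groups that did not overlap. These counts lie near the background and say nothing particular about the pathway. The median difference was 0.04 over the member probe sets and 0.03 over all. Without single arrays, the count of higher member probe sets ranged from 2 to 5. It was 2 without inactivated replicate 3 and without control replicates 1, 2 or 4, and 3 without inactivated replicate 2, inactivated replicate 4 or control replicate 3. The count of lower ones stayed at 5 or 6.

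**Figure D1:**
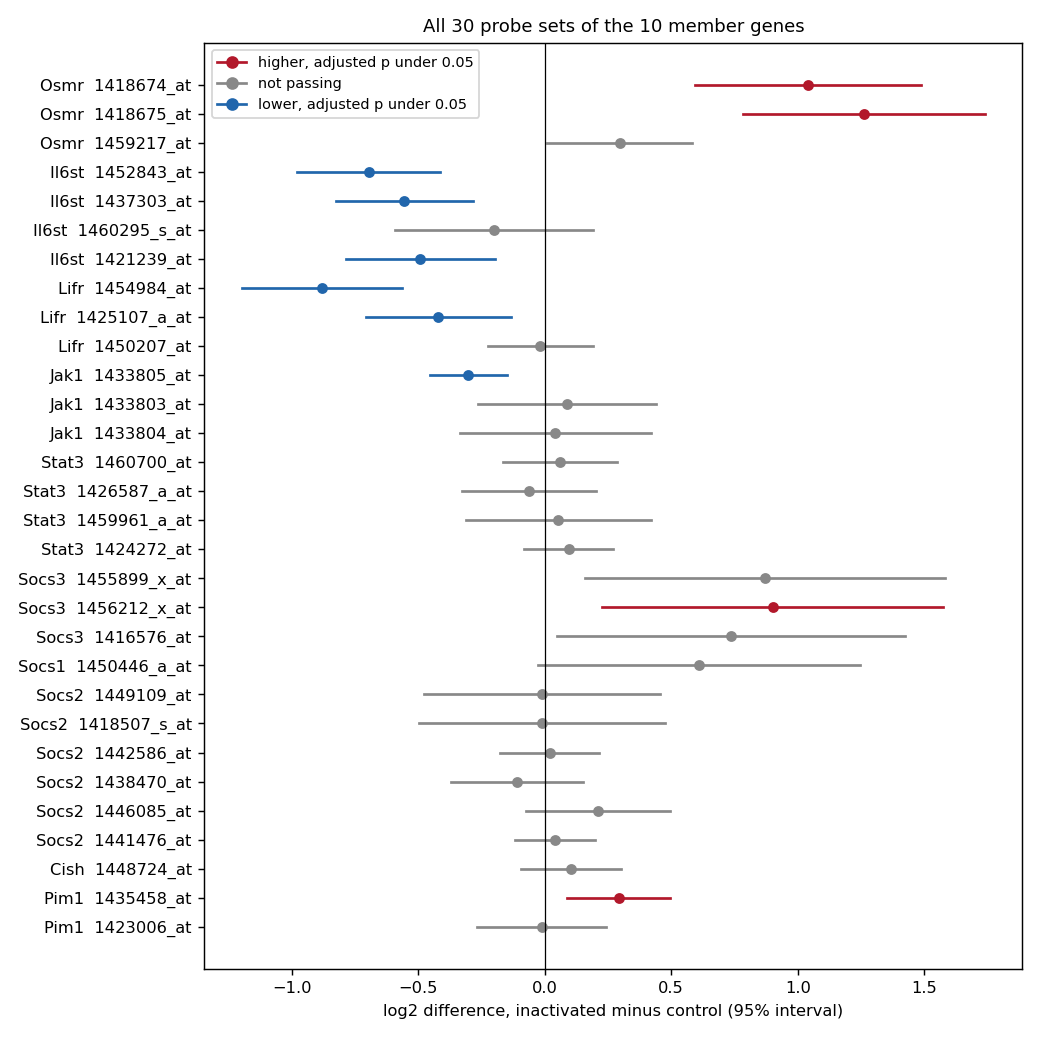
Log2 difference (x axis, inactivated minus control, point) with its 95% interval (line) for each of the 30 member probe sets (y axis), coloured by whether the probe set was higher, lower or did not pass. Osmr lies right of 0, the brightest probe sets of Il6st and Lifr left of it, and the intervals of all 4 Stat3 and all 6 Socs2 probe sets span 0.

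Some arrays stood apart. On the first principal component of all probe sets, inactivated replicate 5 scored 25.3, against 44.9 to 55.8 for the other inactivated arrays and -63.0 to -48.6 for the controls. Inactivated replicate 1 was the highest inactivated array at 18 of the 30 member probe sets, counting a tie with replicate 4 at 1 Socs2 probe set. Several of these probe sets read the same gene. Array medians were 4.34 to 4.39 in the inactivated group and 4.38 to 4.42 in the controls. The sex of the mice is not in the labels, and Xist and Y-linked probe sets marked 3 inactivated and 1 control arrays as female and the others as male.

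Keratinocyte markers were bright, with the 7 markers measured at a mean level of 11.72 to 11.99 in inactivated and 12.26 to 12.41 in control arrays. Of these, 1 rose, 2 fell and 4 did not pass, and the largest change was that of Krt15 (-3.22 ± 0.21). Krt5 had a control mean of 12.3, and the fibroblast markers Col1a2 and Col3a1 had 12.9 and 12.7. The purity of the epidermis was not tested. Markers of several other skin cell types were lower in the inactivated group. All 7 fibroblast markers fell (mean level of the list 9.38 to 10.2 in inactivated and 10.4 to 11.1 in control arrays). For the further lists the mean level is given in the same way, inactivated arrays against control arrays. Of 7 T cell markers 6 fell (5.33 to 5.76 against 6.49 to 6.90), of 6 Langerhans cell markers 5 fell (9.90 to 10.5 against 10.7 to 10.8), and of 8 macrophage markers 5 fell (8.33 to 9.13 against 9.19 to 9.49). Of 6 neutrophil markers 2 rose and 1 fell (3.95 to 4.23 against 3.85 to 4.09), and of 7 endothelial markers 1 rose and 1 fell (5.06 to 5.77 against 5.33 to 5.77). Melanocyte markers rose in 6 of 6 (4.77 to 6.13 against 3.71 to 3.95). Of 6 skeletal muscle, 3 adipocyte and 6 mast cell markers 1 each rose and none fell, and the muscle and adipocyte lists were highest on inactivated replicate 4 (7.31 and 7.48). In such bulk samples, fewer cells of a type and less RNA per cell cannot be told apart. The part of these cells in the results below was not tested.

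**Figure D2:**
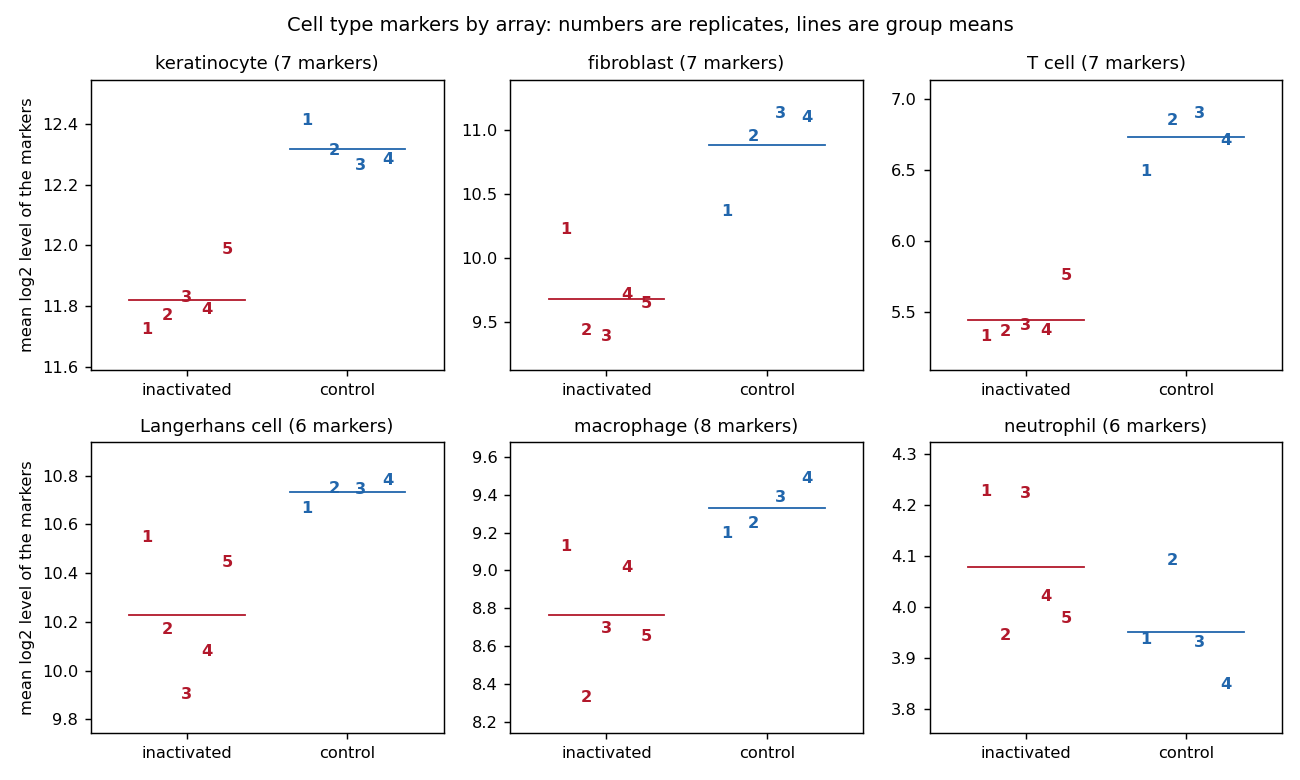
Mean log2 level (y axis) of the markers of 6 cell types in each array, with digits for replicates, lines for group means, and the inactivated group left of the control group. Fibroblast, T cell, Langerhans cell and macrophage markers are lower in the inactivated arrays without overlap, and neutrophil markers overlap between the groups.

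Osmr, the receptor chain specific to oncostatin M and, in partnership with Il31ra, to interleukin 31, rose. At probe set 1418674_at it had levels of 10.15, 9.14, 9.31, 9.37 and 8.97 in inactivated replicates 1 to 5, against 8.48, 8.39, 8.16 and 8.36 in control replicates 1 to 4. Every inactivated array lay above every control array, and replicate 1 was the highest. The difference was 1.04 ± 0.20 (2.06-fold, adjusted p = 0.00334), and 0.85 without inactivated replicate 1 (adjusted p = 0.000414). At 1418675_at the inactivated arrays had 7.57, 6.71, 6.93, 6.83 and 6.47, against 6.08, 5.71, 5.28 and 5.47 in the controls, again without overlap. That difference was 1.26 ± 0.22 (2.40-fold, adjusted p = 0.00161). Both calls held without any single array. The third probe set, 1459217_at, was dim, with levels of 2.65 to 3.36 in inactivated and 2.47 to 2.69 in control arrays, and did not pass (0.30 ± 0.13, adjusted p = 0.114).

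Il6st, the shared signalling chain gp130, fell at 3 of its 4 probe sets. At 1452843_at its levels were 8.04, 7.42, 7.42, 7.71 and 7.74 in the inactivated arrays, against 8.20, 8.36, 8.45 and 8.45 in the controls. The groups did not overlap, with inactivated replicate 1 nearest to the controls, and the difference was -0.70 ± 0.13 (1.62-fold lower, adjusted p = 0.00242). At 1437303_at and 1421239_at the differences were -0.56 ± 0.12 (adjusted p = 0.00682) and -0.49 ± 0.13 (adjusted p = 0.0184). The groups overlapped at the second of these, where inactivated replicate 1 had 5.22 and control replicate 1 had 5.21, and its call was lost with no moderation of the spread (adjusted p = 0.0531). Probe set 1460295_s_at did not pass (-0.20 ± 0.18, adjusted p = 0.427).

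Lifr, the receptor chain for leukaemia inhibitory factor, fell at 2 of 3 probe sets. At 1454984_at the inactivated arrays had 7.20, 6.82, 6.87, 7.53 and 7.33, against 7.86, 8.11, 8.04 and 8.11 in the controls. The groups lay apart, and the difference of -0.88 ± 0.14 (1.84-fold lower, adjusted p = 0.00117) held without any single array. At 1425107_a_at the levels were 4.38, 3.93, 4.58, 4.49 and 4.58 in inactivated and 4.72, 4.83, 4.79 and 4.92 in control arrays, a difference of -0.42 ± 0.13 (adjusted p = 0.0330). This call was lost without inactivated replicate 1 (adjusted p = 0.0548) and without control replicates 2, 3 or 4 (adjusted p of 0.0760, 0.0684 and 0.0918). It was also lost with quantile normalisation (-0.36, adjusted p = 0.0615) and with no moderation of the spread by that of other probe sets (adjusted p = 0.0766). The dim probe set 1450207_at did not pass (-0.02 ± 0.09, adjusted p = 0.910).

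**Figure D3:**
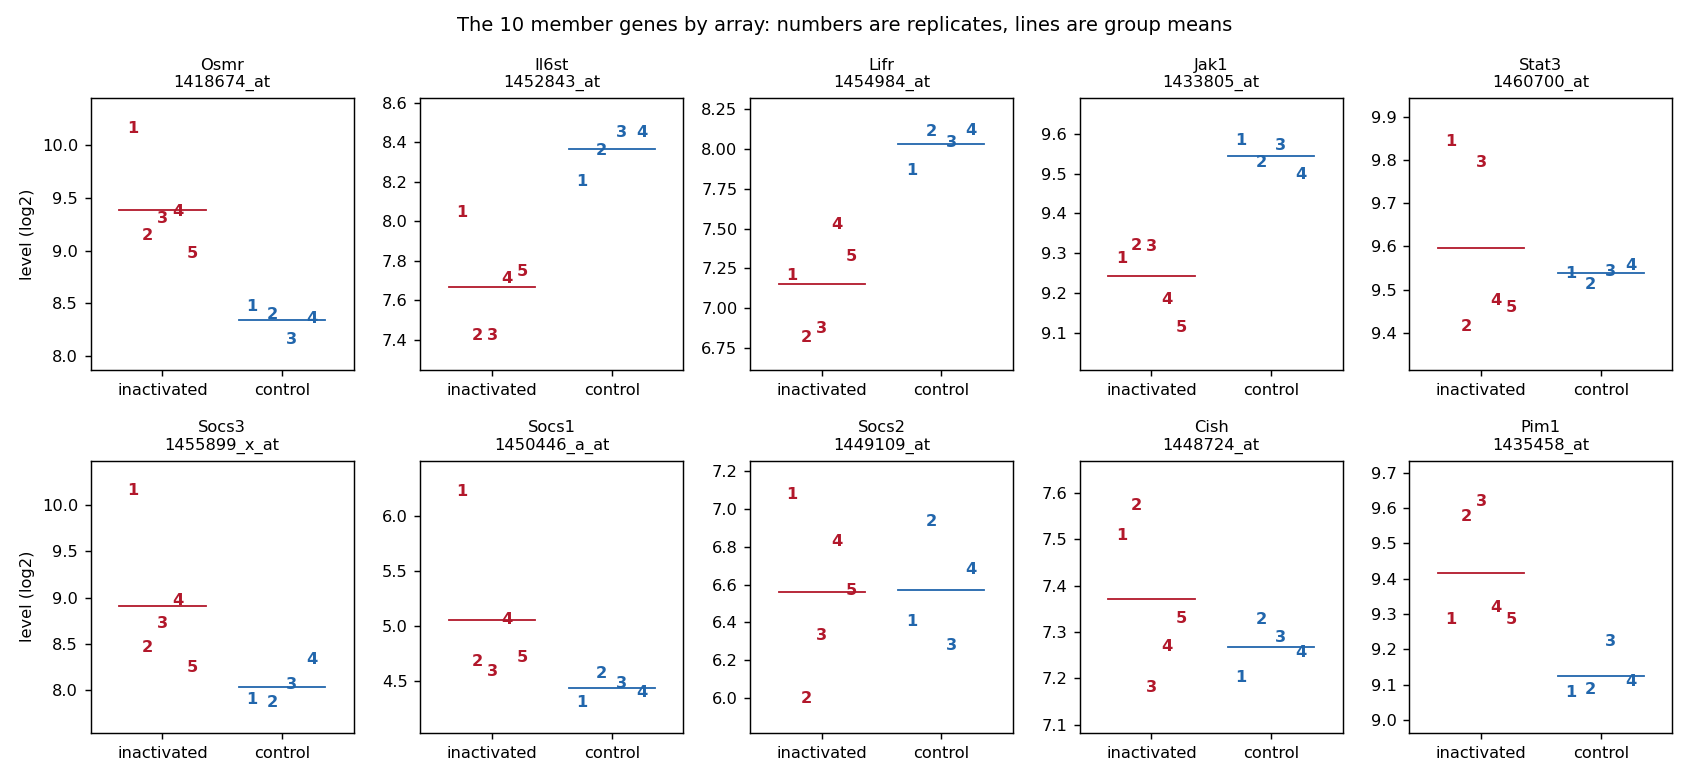
Log2 level (y axis, a separate scale for each gene) of each member gene at its probe set with the highest mean, in each array, with digits for replicates and lines for group means. The groups lie apart for Osmr, Il6st, Lifr, Jak1, Socs1 and Pim1, and inactivated replicate 1 is far above the other arrays for Socs3 and Socs1.

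Jak1, the kinase that docks on gp130 and its partner chains, gave readings that depended on the probe set. At the brightest, 1433805_at, it had 9.29, 9.32, 9.32, 9.18 and 9.11 in inactivated and 9.58, 9.53, 9.57 and 9.50 in control arrays. All inactivated arrays lay below all controls, by -0.30 ± 0.07 (1.23-fold lower, adjusted p = 0.00799). At 1433803_at and 1433804_at the differences were 0.09 ± 0.16 (95% interval -0.26 to 0.44) and 0.04 ± 0.17 (-0.33 to 0.42), and the groups overlapped. At the first of these control replicate 1 had 8.47, above the 7.69 to 7.81 of the other controls. Without that array the difference was 0.27 (adjusted p = 0.0780), opposite in sign to that of the brightest probe set, and with sex as a covariate it was -0.07. The position of the probe sets in the transcript is not given in the sources used here.

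Stat3, which carries the signal to the nucleus, did not pass at any of its 4 probe sets. At 1460700_at the levels were 9.84, 9.41, 9.79, 9.48 and 9.46 in inactivated arrays, against 9.54, 9.51, 9.54 and 9.56 in controls. Replicates 1 and 3 of the inactivated group were above the controls and the other 3 below them, with an SD of 0.20 (n = 5) against 0.02 (n = 4) in the controls. The difference was 0.06 ± 0.10, with a 95% interval of -0.16 to 0.28. At 1426587_a_at, 1459961_a_at and 1424272_at the differences were -0.06 ± 0.12, 0.05 ± 0.17 and 0.09 ± 0.08. Adjusted p-values ran from 0.404 to 0.835, and the intervals of these 3 were -0.33 to 0.20, -0.31 to 0.42 and -0.08 to 0.27.

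By a rule that ranks genes on the mean absolute difference between centred log2 profiles over the 9 arrays, the genes most like Stat3 among 18183 others were Wnt4 (0.0329), Cmip (0.0354) and Kcng2 (0.0412). None of these passed the test, as their choice by likeness to Stat3 on the same 9 arrays made likely.

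Socs3, the inhibitor that binds gp130 and JAK kinases and blocks further STAT3 phosphorylation, had higher means in the inactivated group at each of its 3 probe sets. At 1455899_x_at its levels were 10.15, 8.46, 8.72, 8.96 and 8.25 in inactivated and 7.90, 7.87, 8.06 and 8.33 in control arrays. Inactivated replicate 1 was far above the rest, and replicate 5 lay below control replicate 4. The difference of 0.87 ± 0.32 did not pass (adjusted p = 0.0662). Without inactivated replicate 1 it was 0.56 (adjusted p = 0.0275) and without inactivated replicate 5 it was 1.04 (adjusted p = 0.0328), both of which passed. At 1456212_x_at the inactivated arrays had 9.25, 7.68, 7.92, 8.20 and 7.48, against 7.08, 7.08, 7.12 and 7.56 in the controls. This probe set rose, by 0.90 ± 0.30 (1.87-fold, adjusted p = 0.0481), although inactivated replicate 5 overlapped with control replicate 4. The call was lost without inactivated replicates 3 or 4 (adjusted p of 0.0633 and 0.0868) and without any 1 of the 4 controls (0.0588 to 0.111). An intensity trend with a robust prior (0.0521) and no moderation (0.121) also ended it. It held without inactivated replicate 1, at 0.61 (adjusted p = 0.0217).

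The third Socs3 probe set, 1416576_at, had 9.19, 7.49, 7.84, 8.06 and 7.35 in inactivated and 7.24, 7.18, 7.14 and 7.44 in control arrays. It did not pass (0.74 ± 0.31, adjusted p = 0.102), and was at 0.43 without inactivated replicate 1 (adjusted p = 0.0587). Without inactivated replicates 1 and 5 together, an alternative chosen after the data were seen, all 3 probe sets passed, at 0.68, 0.73 and 0.55 (adjusted p of 0.00996, 0.00949 and 0.0195). Those were the highest and the lowest inactivated array at each of the 3 probe sets. Leaving them out narrows the spread, so these passes add no support for a rise. Probe sets whose names end in _x_at may also bind other transcripts. The genes whose centred profiles were most like that of Socs3 were Rnf122 (mean absolute difference 0.104), Tinagl1 (0.129) and Rgs1 (0.171). Each was highest on inactivated replicate 1, as Socs3 was, which their choice by likeness to Socs3 favours.

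Socs1, an inhibitor of JAK kinases, was read by a single probe set, 1450446_a_at. It had 6.22, 4.68, 4.59, 5.06 and 4.71 in inactivated and 4.31, 4.57, 4.48 and 4.40 in control arrays. The groups did not overlap, but replicate 1 stood more than 1 log2 unit above the other inactivated arrays. The difference of 0.61 ± 0.29 did not pass (adjusted p = 0.139), and was 0.32 without inactivated replicate 1 (adjusted p = 0.0558).

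Socs2, a STAT5 target that restrains growth hormone signalling, passed at none of 6 probe sets. At its brightest, 1449109_at, the levels were 7.08, 5.99, 6.33, 6.83 and 6.57 in inactivated and 6.41, 6.93, 6.28 and 6.68 in control arrays, which overlapped throughout. The difference was -0.01 ± 0.21, with a 95% interval of -0.48 to 0.45. Differences at the other 5 ran from -0.11 to 0.21, with adjusted p of 0.247 to 0.977, and 2 of these probe sets lay below the 25th percentile of all probe sets by mean level. Cish, another STAT5 target and an inhibitor of cytokine receptors, had 7.51, 7.57, 7.18, 7.27 and 7.33 in inactivated arrays, against 7.20, 7.33, 7.29 and 7.25 in controls. Its difference was 0.10 ± 0.09 (95% interval -0.09 to 0.30, adjusted p = 0.415).

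STAT factors bind the palindrome TTCNNNGAA, which was searched in the promoter windows of RefSeq (GRCm38.p6), from 250 bases before to 50 after each annotated start. This pattern reads the same on both strands, though the middle bases of a match need not. It was found in 2 of 11 windows of the 9 members listed there, those of Cish and Socs3, and in 8.3% of all 32851 windows. Socs3 passed at 1 of its 3 probe sets and Cish at none, and no link of the matches to these readings was tested. The stretches around these matches are shown with the matches in capitals, 5′ to 3′ on the strand of the gene.
Socs3 (chr11:117969502-117969531, minus strand): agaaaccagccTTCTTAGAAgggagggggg
Cish (chr9:107296654-107296683, plus strand): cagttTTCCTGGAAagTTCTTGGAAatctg
The Socs3 match begins 154 bases before the annotated start, and those of Cish at bases 1 and 12 of the transcript. The Cish window holds 2 matches, as do at least that many in 0.457% of all windows. A match of letters is a description of sequence and not a measured binding site. The windows of Osmr, Il6st, Lifr, Jak1, Stat3, Socs1 and Pim1 held no such letters.

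Pim1, a serine/threonine kinase induced by STAT3 and STAT5 that favours cell survival, gave unequal readings. At 1435458_at it had 9.28, 9.58, 9.62, 9.32 and 9.28 in inactivated and 9.08, 9.09, 9.22 and 9.11 in control arrays. The groups did not overlap, and it rose by 0.29 ± 0.09 (1.22-fold, adjusted p = 0.0355). The call was lost without inactivated replicates 2 or 3 (adjusted p of 0.0722 and 0.0639) and without control replicates 1, 2 or 4 (0.0805, 0.0868 and 0.0827), and with no moderation (0.0558). At 1423006_at the levels were 8.24, 8.45, 8.70, 8.26 and 8.31 in inactivated arrays, against 8.18, 8.57, 8.51 and 8.35 in controls, with a difference of -0.01 ± 0.11 (adjusted p = 0.950).

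Unequal change was tested by subtracting 1 gene's log2 level from another's within each array, at the probe sets with the highest means, in 3 pairs. The size of such a difference has no meaning between probe sets, and only its change between groups was read. Osmr minus Lifr was 2.95, 2.32, 2.43, 1.84 and 1.64 in inactivated and 0.61, 0.28, 0.12 and 0.25 in control arrays. The groups lay far apart, and the change was 1.92. Its two-sided exact permutation p was 0.00794, the smallest that 126 splits can give, and 0.0238 adjusted over the 3 pairs. Since the groups already lay apart for Osmr and, in the opposite direction, for Lifr, their separation here was fixed in advance. This pair therefore adds no evidence beyond the readings of each gene. Socs3 minus Socs2 was 3.08, 2.47, 2.39, 2.13 and 1.68 in inactivated arrays, against 1.49, 0.93, 1.79 and 1.65 in controls, a change of 0.88 (exact permutation p = 0.0238, adjusted p = 0.0357). Inactivated replicate 5 lay below control replicate 3. Socs3 minus Cish was 2.65, 0.89, 1.55, 1.70 and 0.92 in inactivated arrays, against 0.70, 0.54, 0.77 and 1.08 in controls, and its change of 0.77 did not pass (exact permutation p = 0.0714).

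With 1 array left out, the change of Osmr minus Lifr stayed at 1.74 to 2.07. That of Socs3 minus Socs2 stayed at 0.70 to 1.05, with 0.70 without inactivated replicate 1 and 0.71 without control replicate 2. Adjusted p-values then rose to between 0.0429 and 0.0857 for Osmr minus Lifr and between 0.0429 and 0.134 for Socs3 minus Socs2. With fewer arrays there are fewer splits, so the smallest p that the exact test can give is larger. The rise for Osmr minus Lifr is therefore no measure of a weaker separation. The groups of Osmr minus Lifr stayed apart in each case, as they had to with both genes apart. Those of Socs3 minus Socs2 overlapped unless inactivated replicate 5 or control replicate 3 was left out. The adjusted p-values of Socs3 minus Socs2 were 0.0804 and 0.134 without control replicates 1 and 2. Only the values without inactivated replicate 5 stayed under the threshold.

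**Figure D4:**
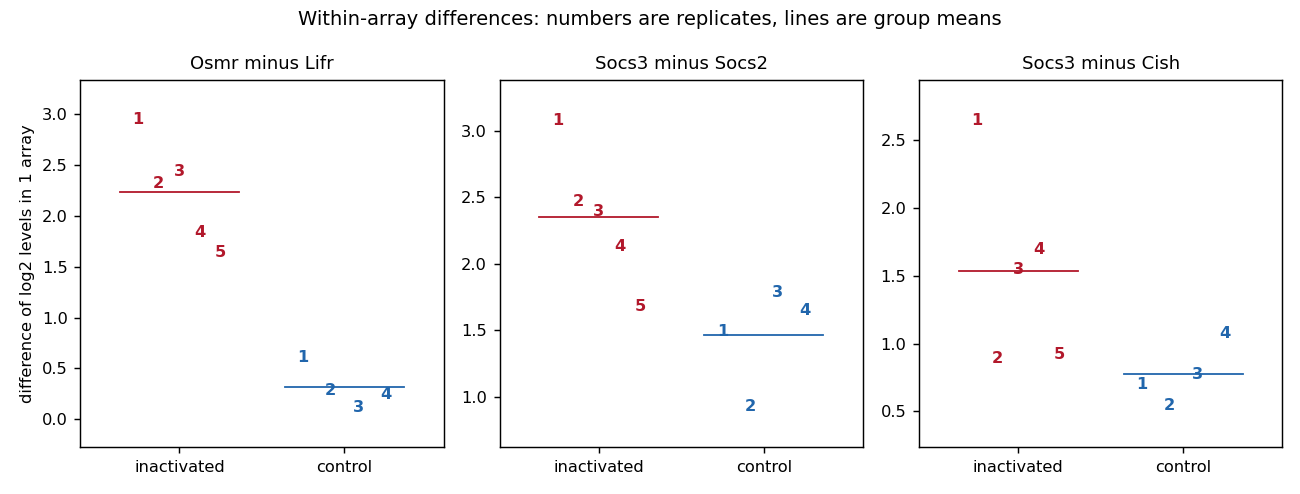
Difference of the log2 levels of 2 genes within each array (y axis) for 3 pairs, with digits for replicates, lines for group means, and the inactivated group left of the control group. Osmr minus Lifr separates the groups, with 1.64 to 2.95 in inactivated and 0.12 to 0.61 in control arrays, while the other pairs overlap.

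The wider pathway was described with 5 lists, in which 71 of 81 genes were read by a probe set of their own and the rest were not analysed here. Again each gene was read at its brightest probe set. Among all 18193 genes, 15.5% were higher and 18.9% lower, with a median difference of 0.03. The lists are described by counts and medians and were not tested as lists.

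Of 12 cytokines that signal through STAT3, 4 were higher, 1 lower and 7 did not pass, with a median of 0.30. Clcf1, a ligand of the CNTF receptor complex, had 8.24, 7.12, 6.00, 6.69 and 6.42 in inactivated and 4.85, 4.89, 4.60 and 4.71 in control arrays. It rose by 2.13 ± 0.36 (4.38-fold, adjusted p = 0.00152), and its other 2 probe sets rose by 1.66 and 1.31. Il24, a cytokine of the interleukin 20 group, rose by 1.47 ± 0.33 (adjusted p = 0.00794), with 3.61 to 5.62 in inactivated and 2.61 to 2.99 in control arrays and its peak on inactivated replicate 1. The granulocyte growth factor Csf3 rose by 0.53 ± 0.14 (adjusted p = 0.0152), and cardiotrophin 1 (Ctf1) fell by 0.58 ± 0.06 (adjusted p = 9.26e-05). Il6, Osm and Lif were named after their values were seen. Il6 had 5.73, 2.90, 2.63, 4.24 and 3.03 in inactivated arrays, against 2.54, 2.26, 2.61 and 2.63 in controls, and did not pass (1.20 ± 0.54, adjusted p = 0.122). It was at 0.69 without inactivated replicate 1 (adjusted p = 0.111). The lowest inactivated value lay just above the highest control value. Osm, the ligand of Osmr, did not pass either (0.52 ± 0.20, adjusted p = 0.0812), with 0.33 without inactivated replicate 1 (adjusted p = 0.0625). Of the 9 arrays left out in turn, only inactivated replicate 5 gave a pass (0.62, adjusted p = 0.0473), and the highest adjusted p was 0.186. Lif rose by 0.40 ± 0.14 (adjusted p = 0.0498), a call lost without inactivated replicates 2, 3 or 4 or any 1 of the 4 controls (adjusted p of 0.0574 to 0.125). It was also lost with an intensity trend and robust prior, no moderation and sex as a covariate (0.0527, 0.103 and 0.0951), and the second Lif probe set did not pass (0.07 ± 0.06, adjusted p = 0.470).

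Of 13 other receptor chains, 1 rose, 4 fell and 8 did not pass, with a median of 0.06. Il6ra, which binds interleukin 6 itself, had 7.50, 6.96, 7.21, 7.08 and 6.98 in inactivated and 8.56, 8.87, 8.73 and 8.91 in control arrays. The groups lay more than 1 log2 unit apart, and Il6ra fell by 1.62 ± 0.12 (3.08-fold lower, adjusted p = 1.03e-05). Ghr, the growth hormone receptor, which signals through STAT5, fell by 1.81 ± 0.16 (adjusted p = 2.48e-05), with 6.79 to 7.65 in inactivated and 9.01 to 9.24 in control arrays. The interleukin 20 receptor chain Il20rb fell by 1.89 ± 0.28 (adjusted p = 0.000701), and its partner Il20ra, named after its values were seen, by 2.35 ± 0.37 (adjusted p = 0.00104). Cntfr, the binding chain of the CNTF receptor complex that Clcf1 uses, rose by 1.36 ± 0.13 (2.56-fold, adjusted p = 3.91e-05), with 5.18 to 5.64 in inactivated and 3.86 to 4.42 in control arrays. Its second probe set did not pass (0.10 ± 0.08).

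Of 8 other JAK kinases and STAT factors, 1 was higher, 3 lower and 4 did not pass, with a median of -0.16. Stat5b, which transmits growth hormone and other cytokine signals, had 6.55, 6.20, 6.29, 6.51 and 6.35 in inactivated and 6.99, 6.88, 7.13 and 7.09 in control arrays. It fell by 0.65 ± 0.09 (adjusted p = 0.000482), and its second probe set did not pass (-0.21 ± 0.11). Its close relative Stat5a fell by 0.35 ± 0.10 (adjusted p = 0.0279) at this probe set and by 0.89 at the other. Its call at the brighter probe set was lost without inactivated replicates 4 or 5 or control replicates 1, 2 or 3 (adjusted p of 0.0518 to 0.0708). It was also lost with quantile normalisation (-0.25, adjusted p = 0.101), cyclic loess (-0.27, adjusted p = 0.0837) and no moderation of the spread (adjusted p = 0.0556). Stat2, which acts in the interferon response, fell by 0.62 ± 0.18 (adjusted p = 0.0249), a call lost without inactivated replicate 2 or control replicates 3 or 4 (0.0542 to 0.0783), with no moderation (0.0737) and with sex as a covariate (0.0546). The other Stat2 probe set fell by 1.03 ± 0.13 (adjusted p = 0.000201). Stat4, which mediates interleukin 12 signals in T cells, rose by 0.55 ± 0.17 from a low level (adjusted p = 0.0335), lost without inactivated replicates 3 or 4 or control replicates 2, 3 or 4 (0.0570 to 0.0949). This call was also lost with quantile normalisation, cyclic loess, no moderation and sex as a covariate (adjusted p of 0.0602, 0.0539, 0.0874 and 0.0602).

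Of 16 other inhibitors of the pathway, 4 rose, 4 fell and 8 did not pass, with a median of 0.00. Socs5, which restrains interleukin 4 and EGF receptor signals, had 9.10, 8.69, 8.33, 8.79 and 8.48 in inactivated and 7.56, 7.40, 7.67 and 7.48 in control arrays. It rose by 1.15 ± 0.14 (2.22-fold, adjusted p = 0.000206), and its dimmer probe set did not pass (0.60 ± 0.21). Socs7, another member of that family, fell by 0.89 ± 0.12 (adjusted p = 0.000422), and of its other 3 probe sets 1 fell by 0.86 and 2 did not pass. The receptor phosphatase Ptprk rose by 0.86 ± 0.11 (adjusted p = 0.000213) at 1 probe set, rose at another by 0.37 and did not pass at 5. Pias2, of a family of proteins that inhibit activated STATs, rose by 0.69 ± 0.11 (adjusted p = 0.00107) at its brightest probe set, but 1428725_at fell by 0.87 ± 0.18 (adjusted p = 0.00502), so its direction depended on the probe set. Socs6, named after its values were seen, was also counted as higher (0.49 ± 0.14, adjusted p = 0.0229). Its other 2 probe sets were called lower.

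Among 22 other genes known as STAT3 targets, 13 rose, none fell and 9 did not pass, with a median of 0.59. That is 59.1% higher, against 15.5% of all genes. The list was chosen with earlier results of these data known, so this share is not a test of the targets. Many of these genes also answer to other pathways, such as NF-kappaB, EGF receptor or hypoxia signals, and are not specific to STAT3. Lcn2, which binds bacterial siderophores, had 9.75, 8.76, 9.83, 10.03 and 8.95 in inactivated and 5.60, 4.97, 4.94 and 5.97 in control arrays, the largest difference in the list. It rose by 4.09 ± 0.30 (17.1-fold, adjusted p = 9.83e-06). Cyclin D1 (Ccnd1), which drives entry into the cell cycle, rose by 1.10 ± 0.12 (adjusted p = 8.78e-05), and its other 2 probe sets by 1.23 and 1.03. The hypoxia factor Hif1a rose by 0.55 ± 0.08 (adjusted p = 0.000629) and the growth factor Vegfa by 0.86 ± 0.13 (adjusted p = 0.000735), each without overlap of the groups. Of the other 3 Hif1a probe sets 2 rose, by 0.53 and 0.95, and 1 did not pass (0.13 ± 0.13).

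Named after their values were seen, the transcription factor Fosl1 rose by 2.35 ± 0.38 (adjusted p = 0.00124), with 5.39 to 7.77 in inactivated and 3.88 to 4.23 in control arrays. The NF-kappaB cofactor Bcl3 rose by 1.16 ± 0.21 (adjusted p = 0.00242) and Junb, an AP-1 subunit, by 0.82 ± 0.12 (adjusted p = 0.000750). Fosl1, Bcl3 and Junb were each highest on inactivated replicate 1, as were Socs3, Socs1, Osmr, Clcf1, Il24 and Il6. The other named targets were not. Among inactivated arrays, Lcn2 was highest on replicate 4, Ccnd1 on replicate 3, and Hif1a and Vegfa on replicate 2. Without inactivated replicate 1 the differences were 2.01 for Fosl1, 0.98 for Bcl3, 0.73 for Junb, 1.79 for Clcf1 and 1.14 for Il24, and these 5 still passed.

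**Figure D5:**
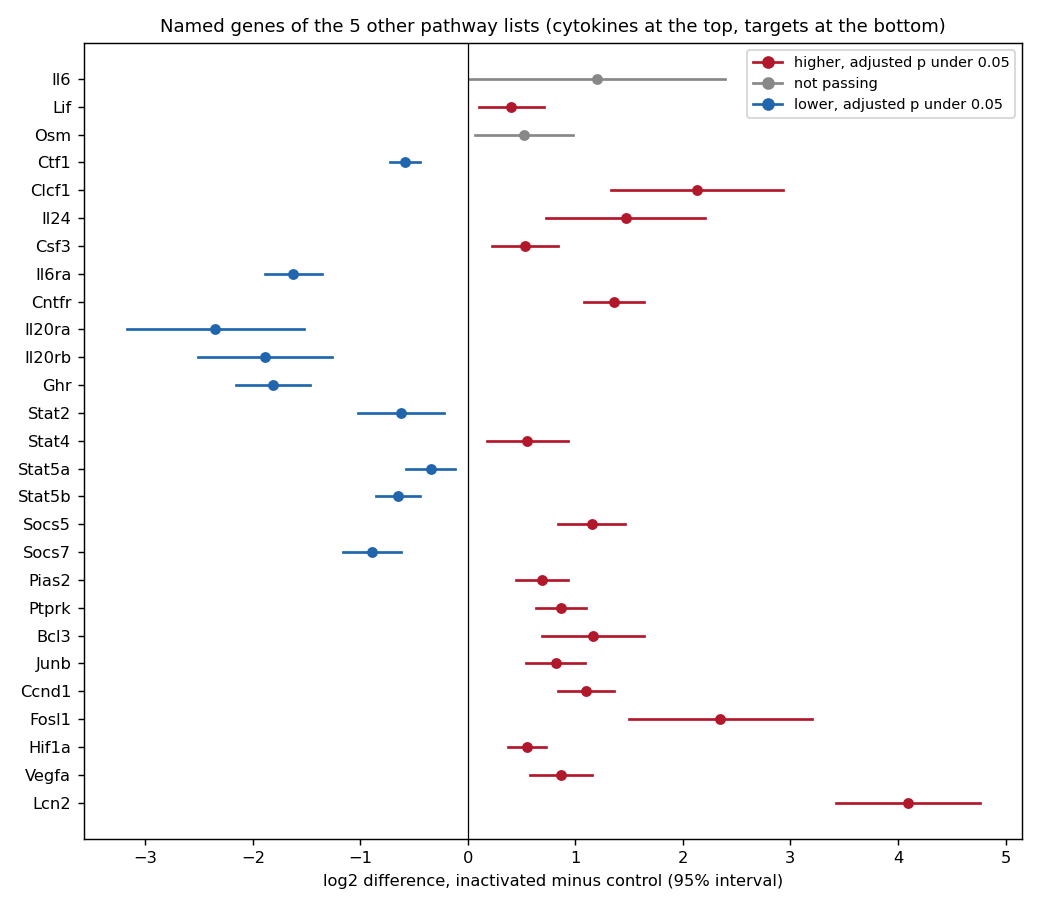
Log2 difference (x axis, inactivated minus control, point) with its 95% interval (line) for the named genes of the 5 other lists except Socs6 (y axis), ordered as cytokines, receptor chains, kinases and STAT factors, inhibitors and targets. All 7 targets shown lie right of 0, but they were named for a small adjusted p or after their values were seen. The 9 targets that did not pass are not shown. Il6ra, Il20ra, Il20rb and Ghr, named in the same way, lie left of 0.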

How the data were processed

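RNA was hybridised to Affymetrix Mouse Genome arrays, and the authors deposited 1 value per probe set and array, taken here as log2 expression. The log base was read from the range of the deposited values, since no label states it. The package affy is named in the submitters' processing notes, with no background correction, normalisation or summary method given in the sources used here. Depth has no meaning for arrays, and their number limits the precision. The labels call the arrays biological replicates. Probe sets carry the gene names of the platform annotation, and only those with 1 gene were named (34945 of 45037, with 932 naming several genes and 9160 not listed).

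All 45037 probe sets were fitted with limma 3.58.1 in R 4.3.3 (lmFit and eBayes, 5 inactivated against 4 control arrays), with Benjamini-Hochberg adjustment over the table and a threshold of 0.05. The procedure was tested on simulated data. Gene counts use the brightest probe set, by mean over the 9 arrays. Within-array differences were compared by two-sided exact permutation tests. The members and lists were chosen with earlier results of these data known.

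Genes named were the members, the passing genes with the smallest adjusted p in each list (4 at most), and the 3 genes with profiles most like those of Stat3 and of Socs3. Il6, Lif, Osm, Il20ra, Bcl3, Fosl1, Junb and Socs6 were added after their values were seen. Both groups use replicate numbers 1 to 4. Deviations of same-numbered arrays correlated between -0.27 and 0.08, so the numbers were not taken to pair the arrays. Alternatives were other normalisations, filters on dim probe sets, other estimates of the spread, array weights, sex read from the data as a covariate, a replicate block, a threshold of 0.01 and each array left out. Proteins and the genome sequence were not used here.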

Additional observations from a re-analysis of the deposited data

Results flagged for a closer look

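In 132 groups of 4 or 5 arrays, 1 array's gap to its nearest neighbour, as a share of the group's range, was tested against Dixon's critical value, and 7 groups exceeded it. Chance alone gives about 1 in 20. Among inactivated arrays, replicate 1 stood above the rest for Socs1 at 6.22, with the next at 5.06 (share 0.713), and for Tinagl1 at 8.19, with the next at 6.76 (share 0.882). Tinagl1 was named for its likeness to Socs3, which was itself highest on that array.

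Among control arrays, replicate 1 was highest for Lifr at 1450207_at, with 3.76 against 3.54 in each of the others (share 1), and for Jak1 at 1433803_at, with 8.47 and the next at 7.81 (share 0.849). Control replicate 4 was highest for Socs3 at 1456212_x_at, with 7.56 and the next at 7.12 (share 0.911), and for Socs2 at 1438470_at, with 3.59 and the next at 3.14 (share 0.880). Control replicate 2 was lowest for Socs7 at 1455402_at, with 7.76 and the next at 7.97 (share 0.894).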

How the results depend on the processing

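Of 1214 comparisons of 63 single probe sets under the alternatives, 1132 stayed on their side of the threshold, 67 lost the call and 15 gained it, and 27 of 38 passing results kept their call in all. Of the 1132, 53 changed sign, at 13 probe sets that did not pass (values after the change of -0.07 to 0.16, none passing), among them 3 of Stat3, 5 of Socs2, 2 of Jak1 and 1 each of Lifr and Pim1; no passing result changed sign. The count of higher member probe sets, 4, became 2 without moderation of the spread, 2 at a threshold of 0.01 and 2 to 5 with 1 array left out. At 0.01, 2932 probe sets were higher and 4377 lower in all, and 15 other pathway genes were higher and 7 lower. The replicate numbers were not taken to pair the arrays. With the replicate block, 7 member probe sets were higher, Stat5a no longer passed (adjusted p = 0.0629), and the within-array changes were 2.07 for Osmr minus Lifr, 1.05 for Socs3 minus Socs2 and 0.92 for Socs3 minus Cish, each with an adjusted exact p of 0.125, the smallest that 4 numbers allow. With 1 array left out, these changes were 1.74 to 2.07, 0.70 to 1.05 and 0.49 to 0.93. Socs3 at 1455899_x_at passed with array weights, with array medians subtracted, with sex as a covariate and with the block (adjusted p of 0.0264, 0.0472, 0.0391 and 0.0402). The cause was not tested. Detection calls were not used, so the reading of dim probe sets has no stated lower limit.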
